A study of Coryphaena hippurus with 27 samples.

Results

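Whole mahi-mahi (Coryphaena hippurus, a fast-growing open-ocean fish) were profiled at 48 hours post fertilisation (hpf) after static exposure to slick oil, weathered crude skimmed from the ocean surface during the Deepwater Horizon spill, or in control seawater. The comparison holds 6 of the study's 27 small RNA libraries, 3 under slick oil and 3 controls, and all 1135 microRNA (miRNA) names of their count table. Per the labels, slick animals were held from shortly after fertilisation in a dilution of a HEWAF of slick oil, labelled 1 g per l, and controls had 0 g per l, both in seawater at 27 °C. Embryos came from spawns of wild-caught broodstock, each library was made from 30 pooled whole animals, and the labels give the tissue as whole embryo. HEWAF stands for high-energy water-accommodated fraction, an oil-in-water preparation. Groups were set by the labels alone, and the replicates of each group are numbered 4, 5 and 6. The labels do not say whether replicates came from separate spawns, so p-values measure only the spread between these pools.

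miRNAs are short RNAs, cut from a hairpin precursor, that guide Argonaute proteins to messenger RNAs and lower their output. A hairpin has a 5p and a 3p arm, and usually 1 of them accumulates while the other is degraded. Many miRNAs are made in 1 tissue or cell lineage, such as miR-144 in red blood cell precursors, miR-142 in white blood cells or miR-499 in heart and slow muscle, so in whole animals their levels follow both how much of a tissue is present and how strongly its cells express them. In these bulk samples fewer cells of a type and less RNA per cell cannot be told apart.

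The deposited counts summed to 66553 to 68047 in the slick libraries and 64295 to 80402 in the controls, and 920 to 948 names were detected under slick oil, against 946 to 994 in controls. No name held more than 1.05% of a library. The first principal component of log counts took 73.7% of the variance and separated slick from control libraries. Control 6 lay nearest to the slick libraries on it, at -4.70, while controls 4 and 5 lay at -7.34 and -7.01 and the slick libraries between 5.83 and 6.72. The counts of controls 4 and 5 differed by less than sampling noise (chi-square per degree of freedom 0.518), whereas control 6 differed from control 4 (1.29) and from control 5 (1.15). All pairs of slick libraries were also below sampling noise, at 0.476 to 0.572, so close agreement is not particular to controls 4 and 5. The main fit kept 3 controls, and results are given beside it without control 6 and with controls 4 and 5 averaged into 1 sample. Spread this narrow is unusual for read counts, and the rule by which the values were counted is not given in the sources used here. The SEs and p-values below rest on this spread, so they may be smaller than independent read counts would give.

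Of 642 names abundant enough to test, 262 (40.8%) passed an adjusted p of 0.05 in edgeR's quasi-likelihood test with Benjamini-Hochberg adjustment, 125 higher (19.5%) and 137 lower (21.3%) under slick oil. The median log2 fold change of all tested names was 0.01, and these shares are the background for each group of miRNAs below. Control 6 was the lowest control in 108 of the 137 lower names and the highest control in 45 of the 125 higher names. Among the 380 names that did not pass, it was the lowest control in 163 and the highest in 128. Most changes were small: 24 of the names that passed were at least 2-fold higher, 33 were at least 2-fold lower and 122 changed by less than 1.5-fold. In 356 names (55.5%) the 3 slick and 3 control libraries did not overlap. These were all 125 higher names, 122 of the 137 lower names and 109 of the 380 that did not pass. Lack of overlap thus adds little to a call. The number of names that passed was 254 without control 6, 205 with controls 4 and 5 averaged, 189 without control 4 and 144 in DESeq2. Of the 262, 230, 201, 183 and 144 passed again in these fits, in the order given, and none passed with the opposite sign. Below, a call is said to have held throughout when the name passed in every alternative fit computed for it, which numbered 16 to 18, among them each library left out in turn and the authors' own table. Of the calls said below to be lost when a library is left out, that of miR-206 passed in DESeq2 and in the authors' deposited table, and those of miR-7a-2-3p, miR-27a, miR-126, miR-132, miR-135b-3p, miR-135b-5p, miR-137-3p, miR-137-5p, miR-146a-3p, miR-190, miR-214-5p, miR-217 and miR-734-5p passed in neither. Those of miR-126, miR-135b-5p, miR-137-5p, miR-146a-3p and miR-734-5p were also lost after cyclic loess, a scaling fitted over abundance.

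**Figure D1:**
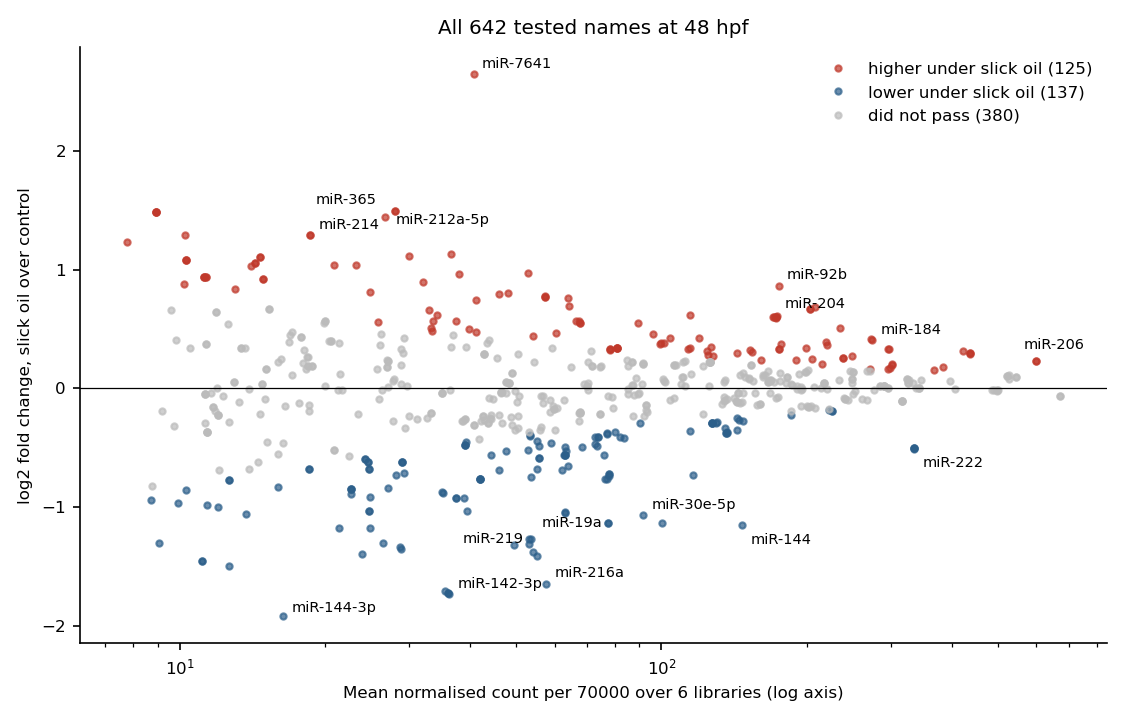
Each point is 1 of the 642 tested names, with its mean normalised count per 70000 over the 6 libraries on a log axis (x) and its log2 fold change, slick oil over control (y). The 125 names that passed as higher and the 137 that passed as lower are coloured, and the names with at least 2-fold changes lie mostly on the left, at low counts.

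By abundance, names with a mean of 200 or more normalised counts (counts scaled to a library of 70000) gave 28 higher and 7 lower of 105. Between 50 and 200 normalised counts 49 were higher and 67 lower of 265, and below 50 the counts were 48 higher and 63 lower of 272. The split of the abundant names depended on the scaling: after cyclic loess it was 19 higher and 20 lower, and among those names miR-9-5p and miR-128 then passed as lower. Names that differ only by a letter or a missing arm often carry the same counts, so that the 642 names hold 523 distinct sets of counts, and neighbouring names are not independent. By miRNA number, 77 of 122 numbers had a name that passed. In 35 of these all names that passed were higher, in 30 all were lower, and 12 had names in both directions.

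The lowest log2 fold changes of single names were those of miR-144-3p and of miR-142, which are miRNAs of blood cells. By list median, glial names (-0.77) and names of miR-101 (-0.56) lay lower than red blood cell names (-0.36) and white blood cell names (-0.19). miR-144, which is transcribed with miR-451 in red blood cell precursors, had 88.1, 91.7 and 95.2 normalised counts under slick oil, against 209, 220 and 178 in controls. The highest slick library was thus well below the lowest control, and the log2 fold change was -1.15 ± 0.08 (SE, adjusted p = 1.01e-27). Both of its arms fell: miR-144-3p had 10.5, 6.18 and 4.23 under slick oil, against 37.4, 27.0 and 13.0 in controls (-1.92 ± 0.28, adjusted p = 1.99e-08), the lowest log2 fold change of all names, and miR-144-5p was at -1.13 ± 0.10 (adjusted p = 1.20e-18). All 3 calls held throughout. miR-451, matured by Argonaute2 without Dicer in other vertebrates, was scarce, at 8.39, 13.4 and 8.46 under slick oil, against 14.8, 14.8 and 8.66 in controls. It did not pass (-0.36 ± 0.25, adjusted p = 0.406), and control 6 lay among the slick values. Of the 7 tested red blood cell names, 3 were lower and none higher.

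Among white blood cell miRNAs, 4 of 10 tested names were lower and 1 higher, and the 4 were all names of miR-142. miR-142-3p, a miRNA of all blood lineages in zebrafish and mouse, had 17.8, 19.6 and 13.7 normalised counts under slick oil, against 71.3, 64.5 and 30.3 in controls. Control 6 held less than the other controls and still lay above every slick library. The log2 fold change was -1.73 ± 0.22 (adjusted p = 1.45e-12), and was -1.98 without control 6. The call held throughout. miR-223-5p, a star strand of the granulocyte miR-223, was at -0.28 ± 0.19 and miR-155, induced in activated lymphocytes and macrophages of mammals, at 0.67 ± 0.25, and neither passed (adjusted p = 0.249 and 0.0609). miR-146a-3p was the only name of the list to pass as higher (0.88 ± 0.26, adjusted p = 0.0440), with 13.6, 11.3 and 14.8 under slick oil against 5.21, 8.71 and 7.58 in controls. That call was lost without controls 4 or 6 or slick 4 or 6, at adjusted p = 0.214, 0.0586, 0.0978 and 0.138. More scarce names entered the test without control 5 or any slick library, and 7 of 13 were then lower.

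In the exocrine pancreas list, 5 of 10 names were lower and 1 higher. miR-216a, made in acinar cells, had 29.4, 28.8 and 26.4 normalised counts under slick oil, against 97.3, 95.0 and 69.3 in controls, and the groups lay far apart (-1.64 ± 0.16, adjusted p = 4.55e-20). miR-216-5p was also lower (-1.35 ± 0.23, adjusted p = 1.94e-07), and both calls held throughout. miR-216b, the most abundant name of the list, did not pass, at 181, 184 and 187 under slick oil and 166, 172 and 168 in controls (0.13 ± 0.06, adjusted p = 0.241). The 5p names of these miRNAs showed the reverse. In the authors' deposited table miR-216a-5p did not pass (0.15, adjusted p = 0.348) and miR-216b-5p was lower (-0.84, adjusted p = 0.00428). That table, a different fit, had miR-216a at -1.36 and miR-216b at 0.13. In the edgeR fit 2 of the 3 tested 5p names of miR-216 were lower, and their log2 fold changes ran from -1.35 to 0.15. Whether miR-216a or miR-216b fell thus depended on the name. The list had no higher name without control 4, and 4 lower and none higher without slick 4. miR-217, which lies beside miR-216 genes, had 168, 156 and 149 under slick oil, against 119, 125 and 144 in controls (0.30 ± 0.07, adjusted p = 0.00927), and it lost its call without control 4 (adjusted p = 0.117) or slick 4 (adjusted p = 0.0757). The separately counted miR-217-5p went the other way, with 73.4, 89.6 and 79.3 under slick oil, against 92.1, 100 and 106 in controls (-0.29 ± 0.10, adjusted p = 0.0454), a call lost without control 5, control 6, slick 4 or slick 6 (0.103, 0.139, 0.188 and 0.0953 for miR-217-5p). The endocrine list, miR-375 of islet and pituitary cells and miR-7, had 3 of 13 names higher and none lower, against 19.5% and 21.3% of all tested names. miR-375 itself did not pass (0.01 ± 0.06, adjusted p = 0.965). miR-7a-2-3p was the highest of the 3, with 19.9, 15.4 and 23.3 under slick oil and 9.56, 11.3 and 9.75 in controls (0.92 ± 0.25, adjusted p = 0.00972), and none of the 3 passed without control 4, 1 passed without slick 6, and none in DESeq2.

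The names with the largest changes were mostly scarce miRNAs outside these lineages too. On the lower side, miR-722, a miRNA named in fish, had 9.44, 14.4 and 15.9 normalised counts under slick oil, against 42.6, 33.1 and 28.2 in controls (-1.40 ± 0.25, adjusted p = 4.22e-07). miR-459, enriched in the gut of zebrafish, had 5.24, 6.18 and 6.34 under slick oil, against 16.5, 17.4 and 15.2 in controls (-1.45 ± 0.27, adjusted p = 0.000502). miR-21b-3p had 31.5, 26.8 and 27.5 under slick oil, against 80.8, 77.5 and 52.0 in controls (-1.32 ± 0.17, adjusted p = 5.06e-12). The call of each of the 3 held throughout, and the groups did not overlap, which the naming rule required. The abundant miR-21, whose loss disturbs heart valve formation in zebrafish, was at 360, 355 and 348 under slick oil and 336, 323 and 355 in controls and did not pass (0.07 ± 0.05, adjusted p = 0.372), so 1 of 5 names of this number was lower.

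**Figure D2:**
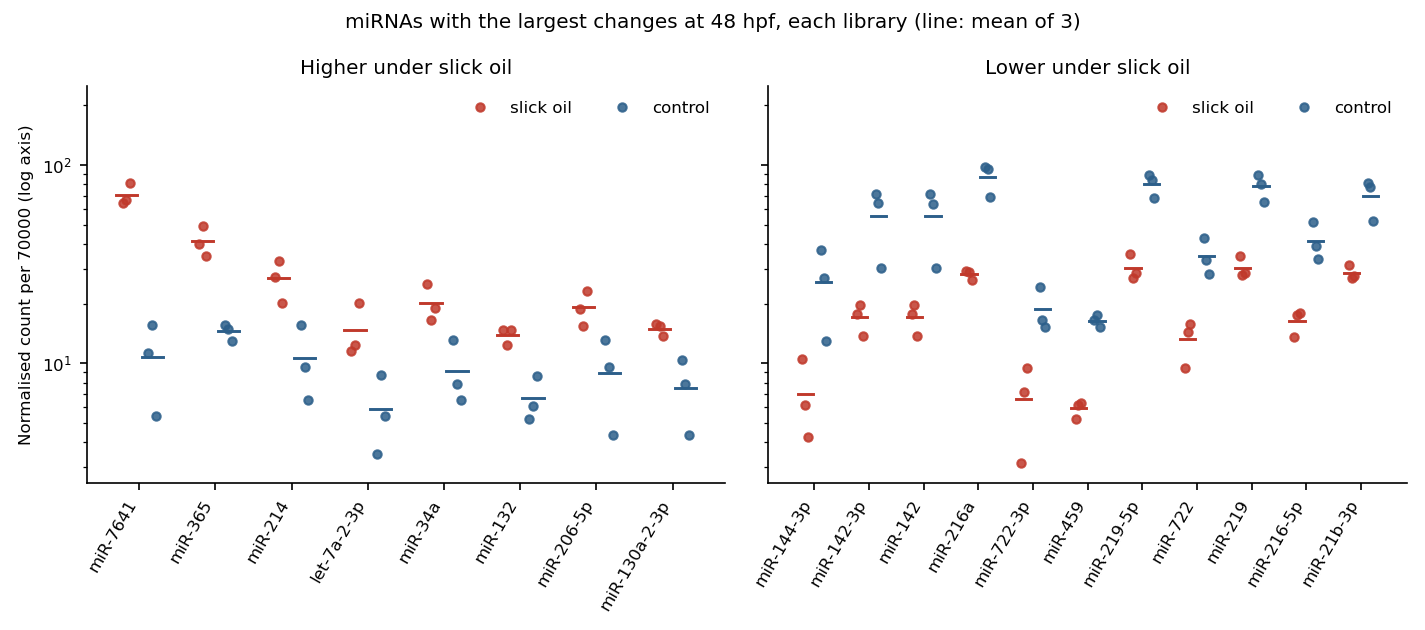
Normalised counts per 70000 on a log axis for the names with the highest (left) and lowest (right) log2 fold changes under the naming rule, which takes the most abundant passing name of each number and arm, 1 point per library, slick oil left of control, with a line at the mean of 3 libraries; names with equal counts are drawn once. The rule takes only names whose slick and control libraries do not overlap, so the gap between the groups was set by the selection. In the right panel control 6, the rightmost of each control trio, is usually the lowest control.

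The highest fold change belonged to miR-7641. It had 64.0, 66.9 and 81.4 normalised counts under slick oil, against 11.3, 15.7 and 5.42 in controls, and its log2 fold change was 2.65 ± 0.22 (adjusted p = 1.57e-24), held throughout. Names numbered 1000 and above, miR-7641 among them, were mixed, with 2 of 11 tested names higher and 3 lower (1 higher without control 4, control 5, slick 4 or slick 6, and the lower count was 0 without control 5 and 1 without slick 5 or slick 6). Of the 3 lower names, miR-1338-5p and miR-1388 had the same log2 fold change (-0.77). Whether miR-7641 reads come from a miRNA gene in this fish was not tested.

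All 6 tested names of miR-365 were higher under slick oil. Each had a log2 fold change of either 1.48 or 1.50, so the 6 names are not independent. miR-365 had 39.8, 49.4 and 34.9 normalised counts under slick oil, against 15.6, 14.8 and 13.0 in controls (1.50 ± 0.23, adjusted p = 7.11e-09), and miR-365-3p had 13.6, 11.3 and 14.8, against 5.21, 4.36 and 4.33 (1.48 ± 0.26, adjusted p = 0.00142). Both held throughout. In zebrafish and mammals miR-365 shares a cluster with miR-193, of which no name was abundant enough to test. miR-34, induced by p53 after DNA damage in mammals, was likewise higher in all 4 of its tested names. Of the 4, 2 passed in the authors' deposited table. miR-34a had 25.2, 16.5 and 19.0 under slick oil, against 13.0, 7.84 and 6.50 in controls (1.11 ± 0.25, adjusted p = 0.00185), and held throughout. These levels are low. The names without an arm had the same log2 fold changes (1.06 and 1.11) as the 5p names, so the 4 names are not independent. Their sum, 63.9 to 98.6 in slick libraries and 26.0 to 52.1 in controls, counts shared reads more than once and is not a level of miR-34.

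The neuronal list, like all tested names, had names that passed in both directions. Of 59 tested names, 10 were higher and 16 lower, against 19.5% and 21.3% of all tested names, and the median was -0.03. The higher names included 3 names of miR-132 and 4 of miR-212, a neuronal pair processed from 1 transcript and induced by activity through CREB in mammals. The 3 names of miR-132 had the same log2 fold change and are not independent. miR-212a-5p had 44.0, 36.0 and 37.0 normalised counts under slick oil, against 13.9, 13.1 and 16.2 in controls (1.44 ± 0.23, adjusted p = 3.66e-08). miR-212 had 80.7, 70.0 and 66.6 under slick oil, against 44.3, 44.4 and 37.9 in controls (0.77 ± 0.15, adjusted p = 9.22e-06), and both calls held throughout. miR-132 was scarcer, with 14.7, 12.4 and 14.8 under slick oil, against 5.21, 6.10 and 8.66 in controls (1.08 ± 0.26, adjusted p = 0.0127), and it lost its call without control 4 (adjusted p = 0.0832). All 10 tested names of miR-153, which regulates synaptic vesicle release in zebrafish, were lower. Some of these names shared counts, and the 4 names of the 5p arm held 2 distinct sets. miR-153-3p had 31.5, 31.9 and 30.7 under slick oil, against 58.2, 59.2 and 40.1 in controls (-0.77 ± 0.18, adjusted p = 0.000279), and held throughout. The lower count of miR-153 was 4 without control 4 and in DESeq2, and 6 without control 6, slick 4 or slick 6, after cyclic loess and with controls 4 and 5 averaged. The pan-neuronal miR-124 did not pass, with 48.2, 55.6 and 43.4 under slick oil and 44.3, 54.9 and 50.9 in controls (-0.02 ± 0.16, adjusted p = 0.925), nor did miR-128 (-0.11 ± 0.05, adjusted p = 0.200). Of 7 names of miR-128, 2 were lower and 1, the scarce miR-128-1-5p, higher (0.56 ± 0.23, adjusted p = 0.0411); none passed without control 4 or control 6 or in DESeq2, only the higher name passed without slick 4 or slick 5, only the 2 lower ones without control 5 or slick 6, and after cyclic loess 6 were lower and 1 higher. The count of the neuronal list depended on single libraries: it was 6 higher and 4 lower without control 4, 14 and 11 without control 6, 11 and 6 without slick 4, and 7 and 8 without slick 6, and in DESeq2 it was 4 and 4.

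miR-9, which times neurogenesis from neural progenitors, was among the most abundant miRNAs, and its main name did not pass. miR-9-5p had 649, 667 and 653 normalised counts under slick oil, and 670, 669 and 727 in controls, so every slick library lay just below every control, by less than passed the test (-0.06 ± 0.05, adjusted p = 0.281). Of 26 tested miR-9 names 9 were lower, among them the scarce miR-9-1-5p at 16.8, 17.5 and 14.8 under slick oil, against 34.8, 38.3 and 26.0 in controls (-1.03 ± 0.24, adjusted p = 0.000151). The list gave 3 lower without control 4, control 5 or slick 5, and 6 higher and 9 lower without control 6. In the glial list all tested names were of miR-219, which drives oligodendrocyte maturation in zebrafish and mouse, and 5 of 10 were lower. miR-219-5p had 35.6, 26.8 and 28.5 under slick oil, against 88.6, 83.6 and 68.2 in controls (-1.41 ± 0.16, adjusted p = 3.20e-15), and held throughout. On the 3p arm, which did not pass, miR-219-3p had 61.9, 55.6 and 58.2 under slick oil and 54.7, 43.6 and 52.0 in controls (0.23 ± 0.15, adjusted p = 0.252). After cyclic loess the glial list gave 2 higher and 5 lower of 10.

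In the eye list 6 of 7 tested names rose, all of them names of miR-204 or its near-copy miR-211. miR-204, abundant in the retinal pigment epithelium, lens and ciliary region and required for eye morphogenesis in medaka, had 216, 195 and 218 normalised counts under slick oil, against 135, 140 and 136 in controls. The slick libraries lay clear of 3 nearly equal controls (0.61 ± 0.07, adjusted p = 2.50e-10). miR-211, near-identical in sequence to miR-204 in other vertebrates, had 211, 195 and 211, against 132, 137 and 136 (0.61 ± 0.07, adjusted p = 4.44e-10), and reads of the pair cannot be told apart here. miR-204-3p, the scarce strand, did not pass (0.32 ± 0.24, adjusted p = 0.357). The count of 6 higher and none lower was unchanged in every fit with a library left out, in DESeq2 and with controls 4 and 5 averaged. miR-184, a lens and corneal epithelium miRNA of vertebrates, had 305, 321 and 309 under slick oil, against 222, 247 and 235 in controls (0.41 ± 0.06, adjusted p = 1.23e-07), and 3 of its 4 names were higher.

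Within the sensory cluster of miR-183, miR-96 and miR-182, which is made in hair cells, photoreceptors and sensory neurons, miR-182 passed and miR-183 did not, and the difference between them was not tested. miR-182 had 322, 328 and 342 normalised counts under slick oil, against 248, 252 and 291 in controls (0.34 ± 0.05, adjusted p = 8.65e-06), and held throughout. miR-183 had 398, 388 and 427 under slick oil and 391, 402 and 428 in controls, with the ranges overlapping fully (0.00 ± 0.05, adjusted p = 0.968). On the scarce strand, miR-182-3p had 28.3, 24.7 and 25.4 under slick oil, against 56.5, 63.6 and 37.9 in controls (-1.04 ± 0.19, adjusted p = 2.29e-06). Of 9 names 2 were higher and 2 lower, with 1 lower without control 4, slick 5 or slick 6. The shares of all tested names were 19.5% higher and 21.3% lower.

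Muscle miRNAs were split by family, arm and name. Of 35 tested names, 8 were higher and 11 lower, against 19.5% and 21.3% of all tested names. The lower count was 11 in every fit with a library left out, and the higher count was 3 without slick 4, 4 without control 4 and 5 without control 6 or slick 5, and 3 in DESeq2. miR-1, the main miRNA of heart and skeletal muscle, had 345, 346 and 333 normalised counts under slick oil and 323, 328 and 374 in controls (0.01 ± 0.05, adjusted p = 0.930). miR-206, specific to skeletal muscle and the second of the muscle pair that targets the same messages, had 630, 635 and 670, against 529, 517 and 616 (0.23 ± 0.05, adjusted p = 2.38e-05), a call lost without control 4, slick 4 or slick 6 (adjusted p = 0.0608, 0.0639 and 0.0953). For miR-133, whose genes lie beside those of miR-1 and miR-206, 6 of 7 names of the 5p arm were lower and none higher, while the 3p names and those without an arm gave 2 of 10 higher and none lower. The remaining 5p name, miR-133-5p, did not pass (0.07), nor did miR-133-3p (0.07), so the split by arm depended on the name. miR-133a-5p had 66.1, 60.8 and 50.8 under slick oil, against 109, 97.6 and 83.4 in controls (-0.72 ± 0.11, adjusted p = 9.25e-07), and miR-133a had 169, 183 and 172 under slick oil, and 171, 163 and 170 in controls (0.06 ± 0.07, adjusted p = 0.630). miR-499, encoded in an intron of a slow or cardiac myosin gene, was lower in all 5 of its names. miR-499-5p had 127, 116 and 114 under slick oil, against 157, 146 and 160 in controls, without overlap (-0.37 ± 0.08, adjusted p = 0.00114).

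In the vessel and smooth muscle list 5 of 25 names were lower and 1 higher (none higher without slick 6), and all 5 were names of miR-222. Of all tested names 21.3% were lower and 19.5% higher. miR-222, a regulator of endothelial growth, had 268, 269 and 292 normalised counts under slick oil, against 401, 389 and 385 in controls, without overlap (-0.50 ± 0.05, adjusted p = 2.17e-13). Its cluster partner miR-221 had 117, 113 and 113 under slick oil, and 109, 110 and 102 in controls (0.10 ± 0.09, adjusted p = 0.508). miR-126, the endothelial miRNA in an intron of Egfl7, had 223, 213 and 232 under slick oil, against 190, 180 and 192 in controls (0.25 ± 0.06, adjusted p = 0.00849), and lost its call without slick 6 (adjusted p = 0.0564), in DESeq2 (0.0623), after cyclic loess (0.0566) and in the authors' deposited table (0.0551). Its arm-named counterpart miR-126-3p, counted separately, did not pass (0.00 ± 0.05, adjusted p = 0.965).

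In the list of the vascular clusters of miR-23, miR-27 and miR-24, 5 of 26 names were higher and 4 lower. The shares of all tested names were 19.5% and 21.3%. All 5 tested names of miR-23 were higher, 4 of 12 names of miR-27 were lower, and none of the 9 names of miR-24 passed. miR-23a had 66.1, 61.8 and 55.0 normalised counts under slick oil, against 34.8, 31.4 and 39.0 in controls (0.81 ± 0.17, adjusted p = 2.54e-05), and miR-23b had 52.4, 52.5 and 46.5, against 24.3, 28.8 and 23.8 (0.97 ± 0.20, adjusted p = 1.29e-05). Both held throughout. miR-27a had 19.92, 19.57 and 17.97 under slick oil, against 33.9, 34.0 and 22.7 in controls (-0.68 ± 0.23, adjusted p = 0.0140). miR-27a lost its call without control 4 (adjusted p = 0.0673) or control 5 (adjusted p = 0.0734), and without control 4 or in DESeq2 no name of the list was lower.

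The miR-17-92 clusters hold growth-promoting miRNAs amplified in some tumours. Of their 50 tested names 13 were higher and 8 lower, against 19.5% and 21.3% of all tested names. All 9 tested names of miR-92 were higher. miR-92a had 253, 245 and 272 normalised counts under slick oil, against 162, 152 and 165 in controls (0.69 ± 0.06, adjusted p = 3.81e-15), and miR-92b had 228, 212 and 239, against 129, 117 and 126 (0.87 ± 0.07, adjusted p = 1.05e-19). Of miR-19, the member that drives the tumour activity of the cluster in mouse, 8 of 11 names were lower and none higher. miR-19a had 49.3, 53.6 and 44.4 under slick oil, against 117, 122 and 79.1 in controls (-1.13 ± 0.12, adjusted p = 9.56e-15), and miR-19b was at -0.59 ± 0.15 (adjusted p = 0.00112). Each of these 4 held throughout. miR-17, the founding member, had 166, 153 and 144 under slick oil, and 140, 140 and 142 in controls and did not pass (0.13 ± 0.07, adjusted p = 0.264).

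**Figure D3:**
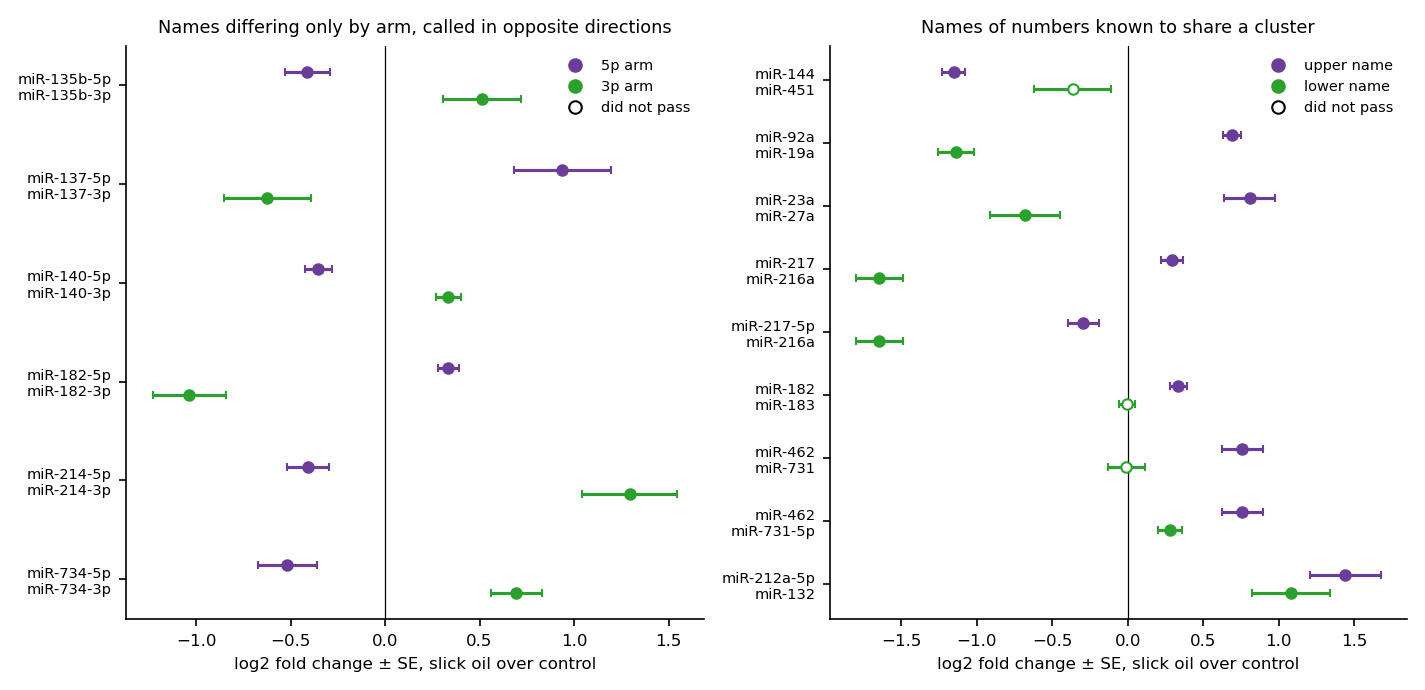
Log2 fold change ± SE, slick oil over control, for the 6 pairs of names that differ only by arm and passed in opposite directions (left) and for pairs of names whose numbers share a cluster in other vertebrates (right); open points did not pass. Within pairs such as miR-92a and miR-19a, or miR-23a and miR-27a, the points lie on opposite sides of 0; for miR-217 and miR-731, each shown also as its 5p name, the side or the call depends on the name.

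Names that differ only by their arm were paired, taking for each number the pair with the most counts. For 46 numbers both names of such a pair had a mean of at least 10 normalised counts. Both passed in the same direction in 6 numbers, in opposite directions in 6, 1 name alone passed in 17, and neither in 17. This tally depends on the pair taken. miR-133, for instance, counts under neither, although 6 of its 7 tested names of the 5p arm were lower. A name may still collect reads from several genes. The 6 numbers with opposite directions were miR-135b, miR-137, miR-140, miR-182, miR-214 and miR-734. Of the 6, miR-140, a cartilage miRNA, had 198, 193 and 195 on the 3p arm under slick oil, against 149, 151 and 167 in controls (0.34 ± 0.07), and 124, 134 and 121 on the 5p arm under slick oil, against 176, 156 and 148 in controls (-0.35 ± 0.07). Calls on both arms of miR-140 and of miR-182 held throughout. miR-214, expressed in mesenchyme and somites, had 27.3, 33.0 and 20.1 under slick oil, against 15.6, 9.58 and 6.50 in controls (1.29 ± 0.25, adjusted p = 3.21e-05), and miR-214-5p had 78.6, 61.8 and 74.0, against 119, 91.5 and 68.2, where control 6 lay within the slick range (-0.41 ± 0.11, adjusted p = 0.00643). The call of miR-214-5p was lost without control 4 (adjusted p = 0.303) or slick 5 (adjusted p = 0.146), while that of miR-214 held throughout. For miR-734 the 3p arm held throughout (0.69 ± 0.14), and the 5p arm (-0.52 ± 0.16) lost its call without slick 5 (adjusted p = 0.0839 for miR-734-5p). The arms of miR-135b and miR-137 lost their calls when single libraries were left out: miR-135b-5p without slick 5 (adjusted p = 0.0851), miR-135b-3p without control 4, control 5 or slick 5 (0.172, 0.0880 and 0.188), miR-137-5p without control 5, control 6 or slick 6 (0.149, 0.0586 and 0.119), and miR-137-3p without control 4, control 5, slick 4 or slick 6 (0.107, 0.0886, 0.0866 and 0.0778).

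Among 3 further lists the names that passed all went up. Of 23 names of miR-99, miR-100 and miR-125, whose genes sit beside let-7 genes, 11 were higher and none lower, and the count was 7 without control 4 and 6 in DESeq2. miR-100 had 120, 124 and 115 normalised counts under slick oil, against 83.4, 91.5 and 92.1 in controls (0.43 ± 0.09, adjusted p = 0.00108), and miR-125b had 71.3, 77.2 and 93.0, against 59.1, 54.0 and 50.9 (0.55 ± 0.13, adjusted p = 0.000713). The arm-named miR-125b-5p, counted separately, did not pass (0.08), nor did miR-125a (0.05 ± 0.09, adjusted p = 0.751). In the Hox cluster list of miR-10 and miR-196, 7 of 23 were higher and none lower, all of them miR-10 names, and 4 were higher without control 4 or slick 5 and in DESeq2. miR-10b, encoded beside Hox genes, had 473, 485 and 486 under slick oil, against 380, 404 and 393 in controls, with no overlap (0.30 ± 0.05, adjusted p = 1.63e-06). Of 16 miR-181 names 7 were higher and none lower, with 3 higher without control 4 or slick 4, in DESeq2 and after cyclic loess. miR-181a-3p, the star strand, had 148, 135 and 128 under slick oil, against 97.3, 109 and 99.6 in controls (0.42 ± 0.08, adjusted p = 0.000507), and the main strand miR-181a was at 0.07 ± 0.05 (adjusted p = 0.386).

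On the lower side, 6 of 7 names of miR-101, which targets the histone methyltransferase EZH2 in mammals, were lower, with the same count in every fit with a library left out and 2 of 7 in the authors' deposited table. miR-101b had 47.2, 39.1 and 38.1 normalised counts under slick oil, against 90.4, 90.6 and 73.7 in controls (-1.04 ± 0.14, adjusted p = 1.47e-10). In the list of miR-26, miR-29 and miR-30, 10 of 34 were lower and 2 higher, and the lower ones were 9 of the 15 names of miR-26 and miR-30e-5p; the list had 4 lower without slick 4 and in DESeq2, 5 without slick 5, and 7 lower and none higher without control 4. miR-30e-5p had 65.0, 56.6 and 57.1 under slick oil, against 129, 135 and 106 in controls, without overlap (-1.06 ± 0.10, adjusted p = 3.20e-15), and was the only lower name of 19 for miR-30. Fish-restricted numbers had 7 of 14 names lower and 4 higher. All 6 names of miR-190 were lower, and miR-190 itself had 11.5, 18.5 and 19.0 under slick oil, against 28.7, 35.7 and 22.7 in controls (-0.84 ± 0.24, adjusted p = 0.00311); it lost its call without control 5 (adjusted p = 0.0574), when 1 of the 6 names passed, and none passed in DESeq2.

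Other lists stayed near or below the background share. None of the 14 liver and gut names passed in either direction, against 40.8% of all tested names. That list leaves out miR-459, described above as enriched in the gut of zebrafish, which was lower (-1.45 ± 0.27). miR-122, the hepatocyte miRNA, had 194, 185 and 190 normalised counts under slick oil and 193, 214 and 230 in controls (-0.15 ± 0.06, adjusted p = 0.130). None of the 8 names of miR-430, which clears maternal messages in early zebrafish embryos, passed, and miR-430a had 243, 255 and 253 under slick oil and 261, 234 and 270 in controls (-0.02 ± 0.06, adjusted p = 0.863). In each list 2 names had an unadjusted p under 0.05, and DESeq2 called none. After cyclic loess 3 names of each list were lower, and with library size alone 1 of each. With single libraries left out, 3 liver and gut names were lower without control 4 and 2 without slick 4, and 3 names of miR-430 were lower without control 6. Among the epithelial names, 2 of 30 were higher and 5 lower, with the skin miRNA miR-203 at 498, 503 and 491 under slick oil and 492, 491 and 522 in controls (-0.01 ± 0.05, adjusted p = 0.917), while the less abundant miR-203b fell to 18.9, 28.8 and 30.7 under slick oil, against 57.4, 51.4 and 37.9 in controls (-0.92 ± 0.20, adjusted p = 4.35e-05). The name miR-203b followed the 5p arm here: miR-203-5p had the same log2 fold change, and none of the 3 names of the 3p arm passed (-0.02 to -0.01). let-7 names, regulators of developmental timing, had 3 of 25 higher and 5 lower, but 7 higher and 2 lower after cyclic loess and 1 of each in DESeq2; without control 4 or slick 6 none was higher, and the lower count was 1 without control 6 and 2 without slick 5. Mesenchyme and cartilage names had 4 of 19 higher and 3 lower, with 1 lower without control 4. In the miR-130, miR-301 and miR-454 list 6 of 25 were higher and 5 lower (2 higher and 7 lower without control 6, 3 and 2 without control 5 or slick 4, 3 and 1 without slick 5, and 2 and 1 in DESeq2), and in the miR-15 and miR-16 list 2 of 8 were higher, 1 of them without control 4, control 5 or slick 4, led by miR-15c-5p (0.74 ± 0.19, adjusted p = 0.000502).

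The hypoxia-linked list was mixed, with 2 of 7 names higher and 2 lower, and 1 higher without control 4, control 5 or slick 6. miR-462, which is induced together with miR-731 by hypoxia in zebrafish, had 81.8, 79.3 and 80.4 normalised counts under slick oil, against 49.5, 47.1 and 45.5 in controls, well apart (0.76 ± 0.14, adjusted p = 3.29e-06). The separately counted miR-462a-5p did not pass (0.36). miR-731 itself had 69.2, 62.8 and 78.2 under slick oil and 74.7, 64.5 and 72.6 in controls (-0.01 ± 0.12, adjusted p = 0.965). The more abundant miR-731-5p was higher, at 131, 129 and 150 under slick oil against 116, 105 and 117 in controls (0.28 ± 0.08, adjusted p = 0.0224), a call lost without control 4, control 5 or slick 6 (0.0608, 0.110 and 0.191 for miR-731-5p) and in DESeq2 (0.142). The HIF-induced miR-210 had 35.6, 46.3 and 34.9 under slick oil, against 59.1, 55.8 and 53.1 in controls (-0.52 ± 0.17, adjusted p = 0.00818), and did not pass in DESeq2 or after cyclic loess.

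**Figure D4:**
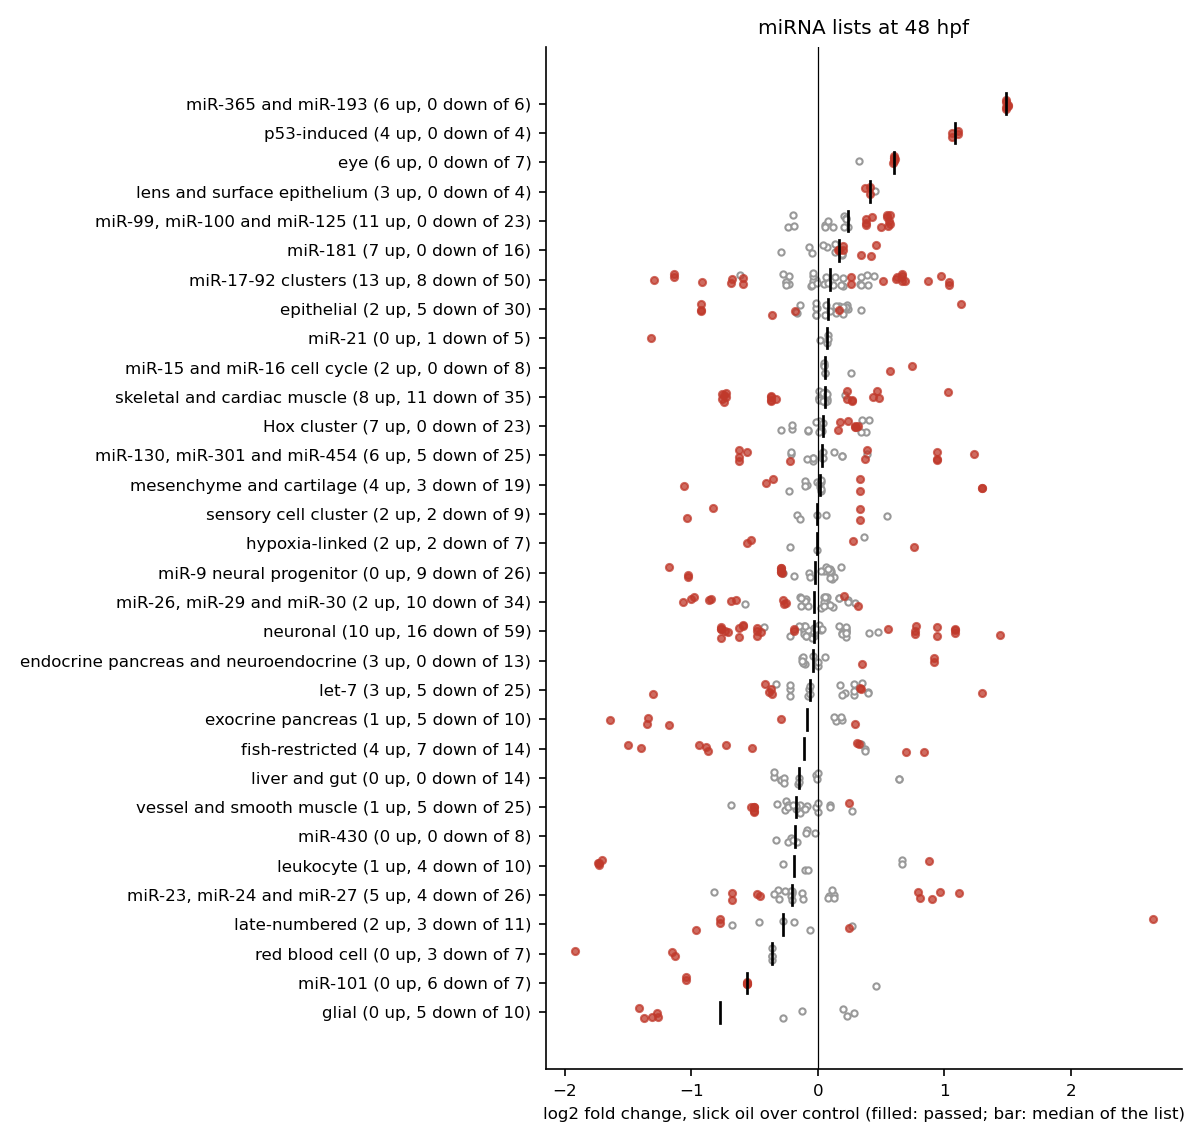
Log2 fold change, slick oil over control, of every tested name in each of the 32 lists, sorted by the median of the list (black bar); filled points passed and open points did not. The eye, lens, miR-15 and miR-16, miR-34 and miR-365 lists lie wholly right of 0, the miR-430 and red blood cell lists wholly left, and the other lists straddle 0.

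Because the control libraries also served the source oil group (oil taken at the well, the same label concentration of 1 g per l, and 3 libraries), slick and source oil at 48 hpf were compared directly in 1 fit of 9 libraries. Of 637 tested names 35 differed (5.49%), 31 higher under slick than under source oil (4.87%) and 4 lower (0.628%). The count was 14, 13 higher and 1 lower, in DESeq2, 22, 18 higher and 4 lower, with library size alone, and 27 higher and 8 lower after cyclic loess. It was 23 without slick 4, 23 without slick 6 and 20 without source 6.

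miR-204 had 217, 196 and 220 normalised counts under slick oil, against 148, 143 and 155 under source oil (slick minus source 0.50 ± 0.06, adjusted p = 4.00e-06), and the 3 controls of that fit were at 135, 140 and 138. Source oil against control, in which 19% of names passed, did not pass for it (0.11, adjusted p = 0.437). miR-130b-5p had 250, 240 and 262 under slick oil, against 173, 189 and 176 under source oil, with the controls at 187, 184 and 203 (0.48 ± 0.06, adjusted p = 1.27e-06). miR-92b was graded, with 228, 214 and 241 under slick oil and 174, 169 and 177 under source oil (0.39 ± 0.06, adjusted p = 0.000115), and controls at 130, 116 and 127. Other names higher under slick than source oil were miR-10b (0.24 ± 0.04, adjusted p = 0.000727), miR-125b (0.45 ± 0.12, adjusted p = 0.0340) and miR-181a-3p (0.53 ± 0.08, adjusted p = 7.37e-05). For these names and miR-92b, the alternative fits of this difference were not examined name by name. miR-144 was lower under slick than source oil, at 88.4, 92.5 and 96.0 against 149, 137 and 139 (-0.62 ± 0.08, adjusted p = 4.00e-06), and both oils lay below the controls at 209, 220 and 180. miR-144-5p followed (-0.56 ± 0.11, adjusted p = 0.000860).

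Other differences between the oils rested on few counts. miR-365-3p had 13.7, 11.4 and 14.9 under slick oil, against 5.76, 6.76 and 4.62 under source oil (1.21 ± 0.24, adjusted p = 0.0410), and its call was lost without slick 4, slick 6 or any source library, at adjusted p = 0.117, 0.174, 0.106, 0.0567 and 0.198 for miR-365-3p. let-7b had 26.3, 21.8 and 22.4 under slick oil and 74.9, 22.2 and 43.5 under source oil, where 1 source library equalled the slick level (-0.99 ± 0.27, adjusted p = 0.0217); without source 4 the adjusted p of let-7b was 0.321, and it was 0.0808, 0.229 and 0.0948 without slick 4, 5 or 6.

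**Figure D5:**
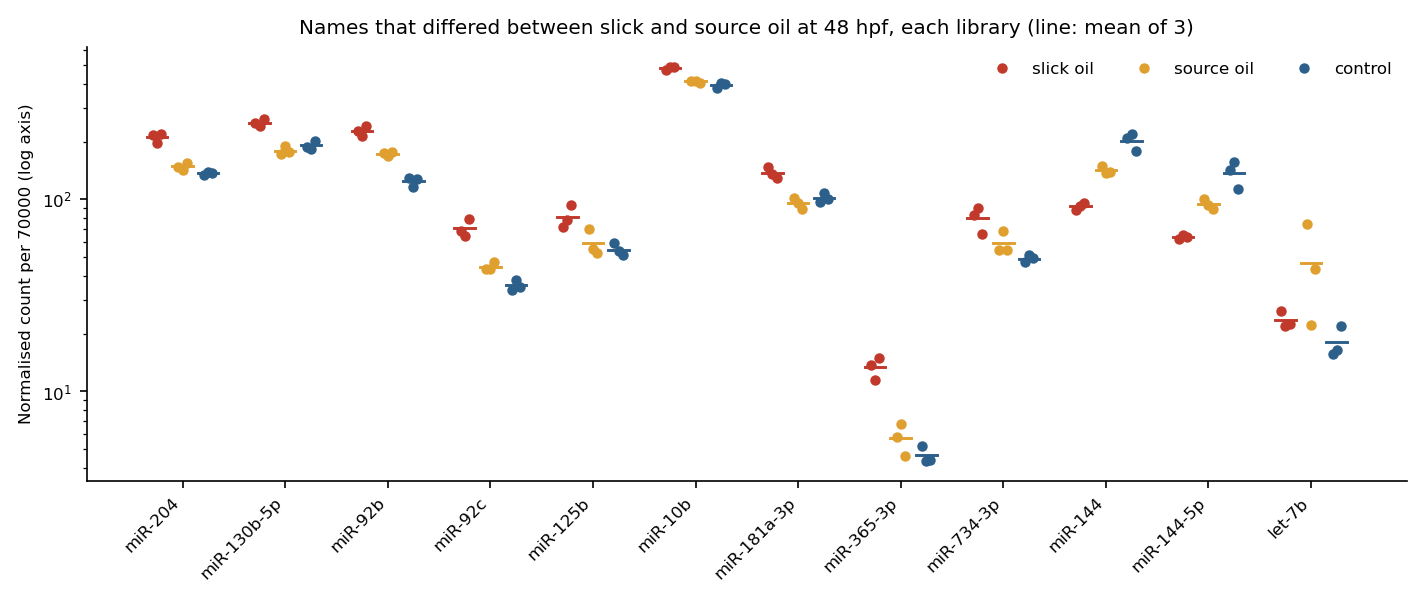
Normalised counts per 70000 on a log axis in the 9 libraries of 48 hpf for 12 names that differed between slick and source oil, 1 point per library, slick oil left, then source oil and control, with a line at the mean of 3. For miR-204, miR-130b-5p and miR-181a-3p the source libraries lie at or near the controls, and for miR-92b, miR-144 and miR-144-5p they lie between slick and control.

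The slick effect at 48 hpf was set against the slick effects at 24 and 96 hpf, each with its own controls, in 1 fit of 18 libraries, in which 39.8% of names passed for slick oil against control at 24 hpf, 37.8% at 48 hpf and 61.5% at 96 hpf. Relative to 24 hpf, 14 of 691 names differed (2.03%), 9 with a higher (1.3%) and 5 with a lower (0.724%) effect at 48 hpf, and the call count depended on the fit: it was 0 in DESeq2 (51 names at an unadjusted p under 0.05, and 91 in edgeR), 15 higher and 4 lower with library size alone, and 0 without control 4 of 48 hpf or without slick 2 of 24 hpf. miR-124 had a slick effect of -0.96 ± 0.19 at 24 hpf and of -0.03 ± 0.16 at 48 hpf. Its level in slick libraries was 21.1, 19.2 and 34.6 at 24 hpf and 49.0, 56.2 and 43.6 at 48 hpf, and in controls it was 47.8, 54.1 and 46.3 at 24 hpf and 44.4, 56.0 and 51.7 at 48 hpf. The difference of the effects was 0.93 ± 0.25 (adjusted p = 0.0396; for miR-124, 0.0733 without control 2 of 24 hpf, 0.0743 without slick 1 of 24 hpf, 0.263 without slick 2 of 24 hpf, 0.109 without control 4 and 0.146 without slick 5 of 48 hpf). Examples of names described above that also passed at both other stages were miR-7641, miR-216a and miR-204, and how many others did was not counted. miR-7641 was at 2.83 at 24, 2.65 at 48 and 3.50 at 96 hpf, miR-216a at -1.26, -1.65 and -1.15, and miR-204 at 0.87, 0.61 and 0.43. For miR-144 the effect at 24 hpf, when controls held 16.9 to 20.2, was -0.61 ± 0.28 and did not pass (adjusted p = 0.106), and it was -1.16 at 48 and -1.38 at 96 hpf.

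Relative to 96 hpf, 210 of 691 names differed (30.4%), 127 with a higher (18.4%) and 83 with a lower (12% of names) effect at 48 hpf. That split moved with the scaling: 52 higher and 98 lower with library size alone, 167 and 68 with full table totals before TMM, 29 and 40 after cyclic loess, 82 and 87 without a filter on low counts, and 68 and 76 with identical names merged. The median difference over all names was -0.04 with TMM, -0.19 with library size alone and 0.05 with full totals, so differences of that size carry no direction. miR-219-5p fell at 48 hpf (-1.42 ± 0.16) and did not pass at 96 hpf (-0.34 ± 0.23, adjusted p = 0.227), and the effects differed by -1.08 ± 0.29 (adjusted p = 0.00660). miR-15c-5p was higher at both stages, with an effect of 0.74 ± 0.17 at 48 and 2.12 ± 0.18 at 96 hpf (difference -1.38 ± 0.27, adjusted p = 0.000347).

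The authors' deposited table for this comparison gave an adjusted p for 738 names, of which 137 passed the same threshold (18.6%), 72 higher (9.76%) and 65 lower (8.81%). Of these, 133 passed in the edgeR fit with the same direction, none with the opposite direction, and 4 were not among the names tested.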

How the data were processed

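Small RNA libraries were made with a NEBNext kit and sequenced on a NextSeq, per the labels' protocols. The authors deposited whole-number counts per miRNA name, unscaled, and, per the file headers, DESeq2 log2 fold changes with p-values and adjusted p-values. The submitters' processing notes name DESeq2; for the aligner, the miRNA reference and the way reads were counted, the tool is not given in the sources used here.

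Members, lists and tests were chosen with earlier results of these data known. Counts were fitted with edgeR 4.0.16 in R 4.3.3 (filterByExpr with min.count of 10, TMM, two-sided quasi-likelihood F test, Benjamini-Hochberg, threshold 0.05). Depth was 64295 to 80402 counts, and 3 libraries a group limit precision. The slick and source fit used the 1075 names with equal control counts in both tables (28 others differed, by at most 5), and the stage fit the 1023 names in every slick table.

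Named miRNAs passed the threshold with a mean of at least 10 normalised counts and no overlap, 12 per direction (the most abundant such name per number and arm), with up to 3 per list plus the most abundant uncalled name and up to 6 per direction in each difference; the text gives some. Cluster partners, arms and variants beside them were chosen after their values were seen. Lists are described by counts, without a set test. Alternatives were DESeq2 1.42.0, DESeq2 size factors, library size alone, cyclic loess (limma 3.58.1), no filter, a mean of at least 50, merged names, a replicate block, all 9 libraries, the authors' table and each library left out; averaged controls 4 and 5, merging within 5% and full table totals were added after the data were seen. The test was also run on simulated counts, drawn independently for each name and with more than sampling spread. Most library pairs here were below sampling noise and names share counts, so that run gives no error rate for these data.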

Additional observations from a re-analysis of the deposited data

Results flagged for a closer look

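Differences between the slick effect at 48 hpf and at another stage passed the interaction test of edgeR for the following names; all rest on 3 libraries a group. Against 24 hpf, the effect at 48 hpf was higher for miR-124-3p (0.96), miR-124 (0.93), let-7a-5p (0.85), miR-181a (0.43) and miR-181a-5p (0.40), and lower for miR-187 (-0.67), miR-222a-3p (-0.54) and miR-222 (-0.54), all on the log2 scale. None of the 8 passed in DESeq2, and none passed without slick 2 of 24 hpf or without control 4 of 48 hpf. For let-7a-5p the slick effect was -0.63 ± 0.14 (SE) at 24 hpf and 0.22 ± 0.12 at 48 hpf. For miR-222 it was 0.04 ± 0.09 at 24 hpf and -0.51 ± 0.09 at 48 hpf, and for miR-187 it was 0.70 ± 0.14 at 24 hpf and 0.03 ± 0.12 at 48 hpf.

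Against 96 hpf, the effect at 48 hpf was higher for miR-132a (1.57), let-7a-5p (1.18), miR-122-5p (0.66), miR-122 (0.65), miR-128-3p (0.62) and miR-128 (0.61). It was lower for miR-18a-3p (-1.49), miR-451-5p (-1.47), miR-451 (-1.44), miR-33a-3p (-1.43), miR-15c-5p (-1.38) and miR-210-5p (-1.24). The hepatocyte miR-122-5p had 200, 191 and 194 normalised counts under slick oil and 197, 220 and 236 in controls at 48 hpf, and 192, 180 and 147 under slick oil against 307, 317 and 287 in controls at 96 hpf, where the effect was -0.81 ± 0.08. miR-132a had an effect of 1.08 ± 0.33 at 48 hpf and -0.49 ± 0.16 at 96 hpf, both past the threshold and of opposite sign. At 48 hpf it held the same scarce counts as miR-132, with means of 13.9 under slick oil and 6.66 in controls. In the 48 hpf comparison alone, the call of miR-132 was lost without control 4 and in DESeq2. In the authors' deposited table miR-132a did not pass (adjusted p = 0.0899). The differences for miR-451 and miR-33a-3p did not pass in DESeq2 or after cyclic loess, and miR-33a-3p did not pass without control 4 of 48 hpf (adjusted p = 0.0576).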

How the results depend on the processing

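The count of names that passed between slick oil and control was 262, and stayed within 1.5 times of it with DESeq2 size factors (264), library size alone (265), cyclic loess (256), no filter (261), identical names merged (211), all 9 libraries (249), controls 4 and 5 averaged (205) and names merged within 5% (218). It was 144 in DESeq2, 150 of 375 tested with a mean of at least 50 (fewer names tested), 137 in the authors' table, and 189 to 254 with each library left out. No name that passed was called with the opposite sign in any of these. For slick minus source oil (35) the count was 14 in DESeq2, 22 with library size alone, 23 with full table totals and 20 to 39 with a library left out. For the effect at 48 minus 24 hpf (14) it was 0 in DESeq2, 22 after cyclic loess, 6 without a filter, 9 with identical names merged and 0 to 23 with a library left out. For 48 minus 96 hpf (210) it was 79 in DESeq2, 69 after cyclic loess and 127 to 249 with a library left out. The cause was not tested where no construction is named. Replicate numbers are shared between groups, but same-numbered libraries did not deviate together (r = -0.03, 0.08 and 0.10 for 4, 5 and 6), so they were not treated as pairs; with a replicate block the count was 260, and 38, 20 and 211 for the 3 differences. The median SE of a log2 fold change was 0.23 below 50 normalised counts, 0.097 from 50 to 200 and 0.055 above, and 61 of 111, 58 of 116 and 14 of 35 calls in these ranges were lost in at least 1 alternative.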
